A study of Mus musculus with 93 samples.

Results

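The genes described here were 34 genes of the endoplasmic reticulum (ER) stress response and the secretory pathway, measured in leukocytes of mouse peripheral blood. They were chosen by symbol as 3 stress sensors, 3 stress transcription factors, 10 genes of the BiP and GRP94 chaperone machinery, 6 lectin chaperones and disulfide isomerases, 4 genes of the translocon and 8 genes of ER-associated degradation. All 34 were measured, among 18193 genes with a single symbol, and each was read from its brightest probe set over the 93 arrays. The tumor arrays came from female FVB/NJ mice carrying an MMTV/c-MYC transgene, which expresses c-MYC or a more stable variant of it from the hormone-responsive MMTV promoter and gives mammary tumors. The control arrays came from tumor-free wild-type females matched for age and parity, whose labels give the strain as FVB/NJ in one field, as for the tumor mice, and as FVB/N in another. Each cohort (training and validation) numbers its tumor arrays, and the numbers divided the 65 tumor arrays in 2. The late-numbered tumor arrays were training numbers 6 to 32 and validation numbers 9 to 33 (52 arrays), the early-numbered tumor arrays were training numbers 1 to 5 and validation numbers 1 to 8 (13 arrays), and there were 28 control arrays, 14 in each cohort. The model pools several transgenic lines, and which line gave which array was not given. The labels name no animals, so the p-values measure the spread between arrays, which may in part be technical.

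The ER folds and modifies proteins that enter it through the Sec61 translocon. When unfolded proteins accumulate, the sensors IRE1 (Ern1), PERK (Eif2ak3) and ATF6 raise the production of chaperones, disulfide isomerases and degradation factors, in part through the transcription factors XBP1, ATF4 and CHOP (Ddit3). Cells that secrete large amounts of protein depend on this machinery, above all antibody-secreting cells, which need XBP1 and are rich in MZB1, a partner of BiP and GRP94. XBP1 is also used by other blood cells, among them myeloid cells. The questions asked of the 34 genes were therefore how each level stood in the late-numbered tumor, early-numbered tumor and control arrays, and whether the other 33 followed the level of Xbp1 or that of Mzb1 from array to array.

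The array groups also stood apart in technical values of the arrays. The spike-in transcript dap, read by its 3' probe set, had log2 values of 6.47 to 10.5 in late-numbered tumor arrays, against 2.39 to 4.58 in early-numbered tumor arrays and 2.3 to 3.84 in control arrays. The difference between the 5' and 3' probe sets of beta-actin, a measure of how complete the labelled transcripts are, was −0.54 ± 0.28 in late-numbered tumor, −1.42 ± 0.23 in early-numbered tumor and −0.64 ± 0.10 in control arrays (mean log2 difference ± SD). The lowest late-numbered value, −2.3 in training number 22, lay below the lowest early-numbered value of −2. The late-numbered arrays thus stood apart from control in the spike-in and the early-numbered arrays in the 5' signal, while the tumor groups differed from each other in both. In each of these comparisons the laboratory step behind such a value and the group cannot be told apart. No array had values identical to those of another.

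Promoter sequences were read because XBP1 and ATF6 act through short motifs close to the start site. RefSeq promoter windows (250 bases before to 50 after the start site, mouse GRCm38.p6) were found for 28 of the 34 genes. The ER stress element, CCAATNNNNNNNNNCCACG on either strand, occurred in 9 of them and in 0.119% of all 32851 promoter windows. The second ER stress element, ATTGGNCCACG, occurred in 2 (Dnajb11 and Herpud1) and in 0.0365% of all windows. The UPR element TGACGTGG was in none of the 28 windows and in 0.676% of all windows, whereas the short core CCACG, which is contained in both ER stress elements, was in 23 of the 28 and in 32.8% of all windows. A match is a description of the sequence and not a bound site. The windows below were chosen to set members that differed in the tumor arrays side by side, and their capitals mark the fixed letters of the element, with 20 bases on each side. The Hspa5 window lies at chr2:34772005-34772063 (plus strand) and that of Pdia6 at chr12:17266471-17266529 (plus strand). The Creld2 window is at chr15:88819500-88819558 (plus strand) and carries the element on the opposite strand, so that it reads in reverse complement. The Dnajc3 window is at chr14:118937807-118937865 (plus strand), the Canx window at chr11:50325780-50325838 (minus strand), the Syvn1 window at chr19:6046512-6046570 (plus strand) and the Herpud1 window, which holds the second element, at chr8:94386357-94386407 (plus strand).
Hspa5: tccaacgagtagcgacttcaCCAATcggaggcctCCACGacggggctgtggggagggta
Pdia6: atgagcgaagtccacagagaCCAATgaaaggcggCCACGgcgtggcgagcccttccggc
Creld2: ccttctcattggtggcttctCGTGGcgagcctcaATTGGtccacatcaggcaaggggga
Dnajc3: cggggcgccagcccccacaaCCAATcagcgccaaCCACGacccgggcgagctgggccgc
Canx: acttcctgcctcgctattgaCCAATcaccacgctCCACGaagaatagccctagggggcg
Syvn1: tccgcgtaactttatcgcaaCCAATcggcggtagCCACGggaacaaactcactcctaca
Herpud1: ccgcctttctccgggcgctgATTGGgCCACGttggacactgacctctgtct

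The 11 genes with either element did not move in one direction. In late-numbered tumor against control arrays 5 were higher, 5 were lower and 1 was not called, and in early-numbered tumor against control arrays 2 were higher, 7 were lower and 2 were not called. Of all genes, 25.6% were called higher and 20.5% lower in late-numbered arrays, and 34.3% and 29% in early-numbered arrays. Of the windows printed above, those of Hspa5, Pdia6, Creld2 and Herpud1 belonged to genes called higher in late-numbered tumor arrays by their brightest probe set. Those of Dnajc3, Canx and Syvn1 belonged to genes called lower there. Dnajc3, Canx and Syvn1 each had another probe set called higher there (log2 differences of 0.24, 0.42 and 0.30). Dnajc3 and Canx also had another called lower (−0.29 and −0.50), and the other probe set of Pdia6 was called lower (−0.39).

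**Figure D1:**
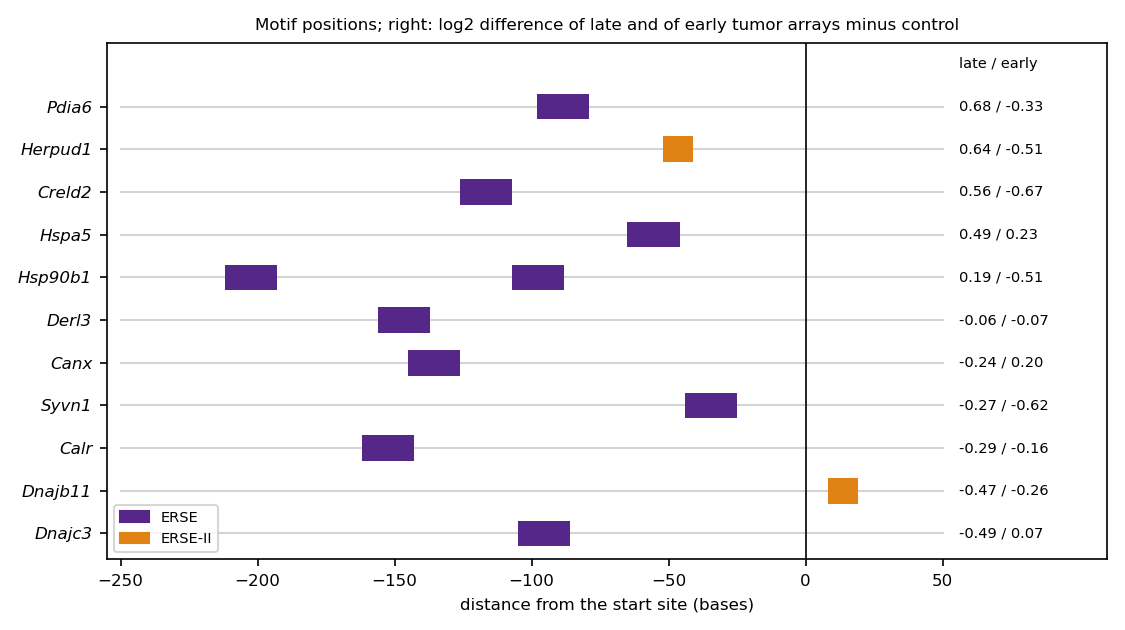
Position of the ER stress element and the second ER stress element in the promoter windows of the 11 members that hold one, in bases from the start site (250 before to 50 after), with the log2 differences of late-numbered and early-numbered tumor arrays from control at the right. Members with an element stood on both sides of 0 in late-numbered arrays, with 5 higher and 5 lower, where 25.6% and 20.5% of all genes were called.

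Most of the 34 genes differed between the tumor groups and control, in directions that depended on which tumor arrays were read. In late-numbered tumor against control arrays, 16 genes were higher and 14 were lower (47.1% and 41.2%), where 25.6% of all genes were called higher and 20.5% lower by limma at an adjusted p of 0.05. In early-numbered tumor against control arrays, 4 were higher and 18 were lower (11.8% and 52.9%), against 34.3% and 29% of all genes. The median log2 difference of the 34 genes was 0.04 in late-numbered tumor arrays, where the median over all genes was also 0.04. In early-numbered tumor arrays the median of the 34 was −0.23, against 0.07 over all genes. Directly between the tumor groups, 17 genes were higher in late-numbered arrays and 10 were lower (50.0% and 29.4%), against 31.5% and 38.3% of all genes. Of the 30 genes called in late-numbered arrays, 30 had the same sign in both cohorts and 23 passed in each cohort alone. The corresponding numbers were 21 and 14 of 22 genes in early-numbered arrays.

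A total of 15 of the 34 genes were called in opposite directions in the tumor groups, each set against the same 28 control arrays, where 14% of all genes were. Of these, 12 were higher in late-numbered and lower in early-numbered tumor arrays: Eif2ak3, Atf4, Ddit3, Hsp90b1, Sdf2l1, Creld2, Pdia4, Pdia6, Sec61b, Edem1, Edem2 and Herpud1 (10.2% of all genes). The other 3, Ern1, Canx and Ssr1, were lower in late-numbered and higher in early-numbered arrays (3.82% of all genes). Of the 30 genes called in late-numbered arrays, 23 had other probe sets, and for 10 of these at least 1 other probe set was called in the opposite direction. In early-numbered arrays this was so for 5 of 16. Some genes not called by their brightest probe set had another that was called. In late-numbered arrays these were Hyou1 and Sec61a1. In early-numbered arrays they were Atf6, Hyou1, Dnajc3, Pdia3, Ssr3, Sel1l, Derl1 and Derl2. Hspa5 was the 1 gene called higher in both groups, and 5 genes, among them Mzb1, were called lower in both. Hyou1, Manf and Derl3 were called in neither. In peripheral blood, fewer cells of a type and less RNA per cell cannot be told apart, and this applies to every level given here.

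**Figure D2:**
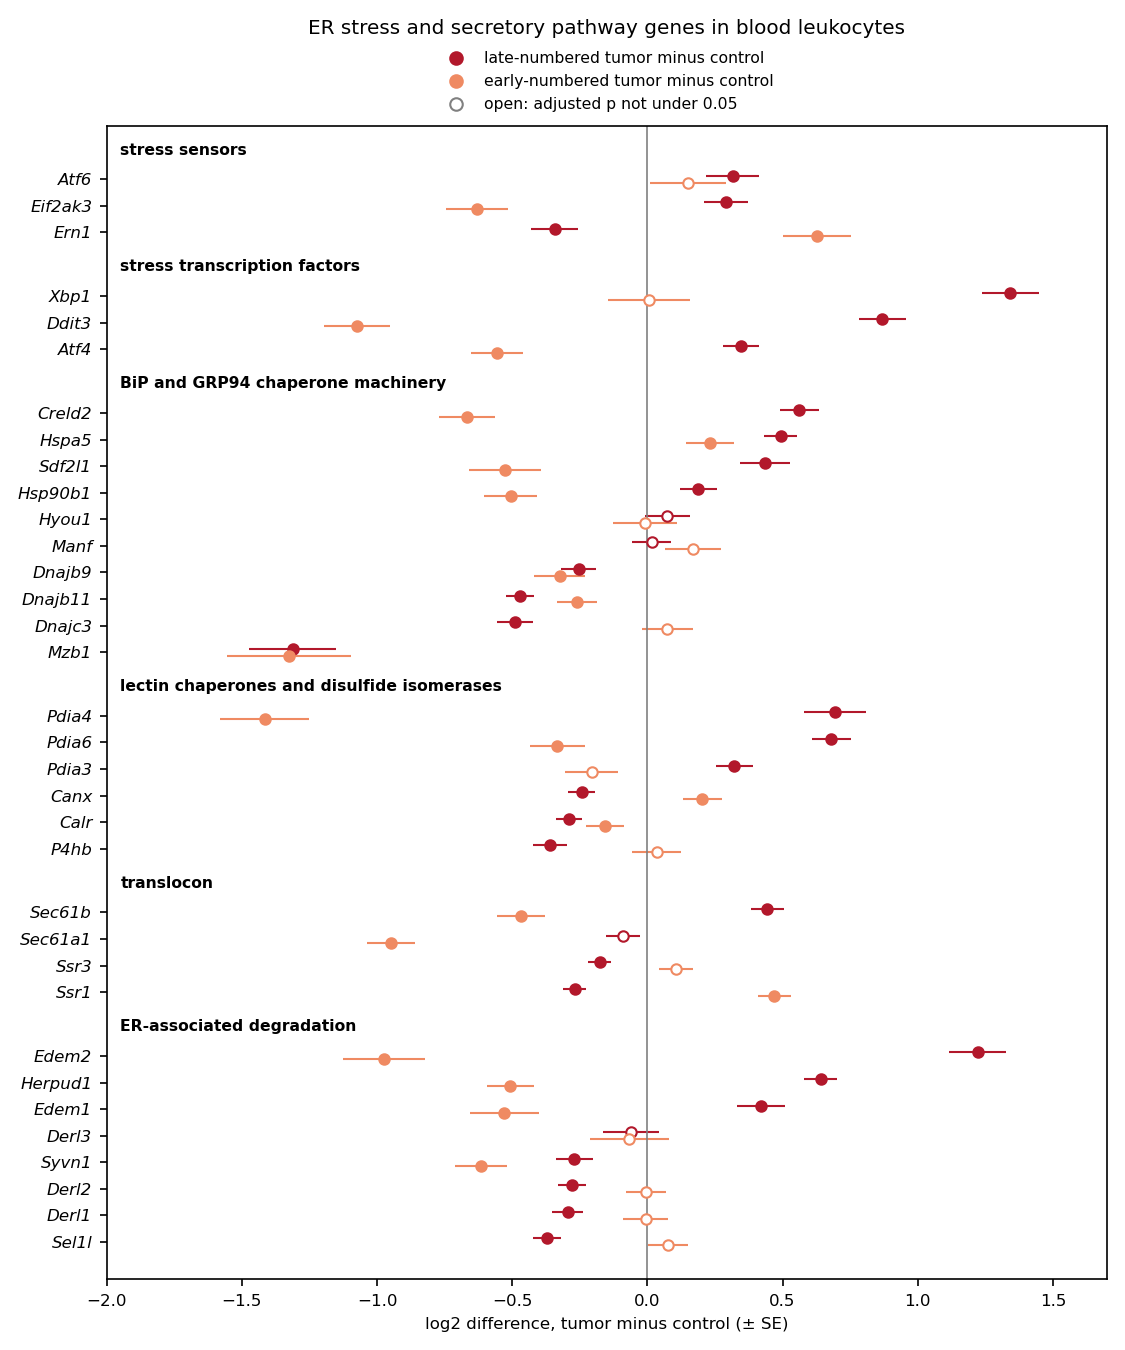
Log2 difference (± SE) from control of the 34 genes, ordered by role, in late-numbered tumor arrays (red, n = 52) and early-numbered tumor arrays (orange, n = 13), each against the same 28 control arrays; open symbols were not called by limma at an adjusted p of 0.05. For 15 genes the red and orange symbols were called on opposite sides of 0, whereas Mzb1 is low in both groups and Xbp1 is high in the late-numbered arrays alone.

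Among the stress sensors, IRE1 and PERK moved in opposite directions in each tumor group. Ern1, which encodes the kinase and endonuclease that splices Xbp1 mRNA, had log2 levels of 7.15 to 9.5 (median 8.69) in late-numbered tumor arrays, 9.15 to 10.1 (median 9.67) in early-numbered tumor arrays and 8.27 to 9.52 (median 9) in control arrays. The ranges overlapped, but 9 of the 13 early-numbered arrays lay above the highest control array and 8 of the 52 late-numbered arrays below the lowest. The log2 difference from control was −0.34 ± 0.09 (SE) in late-numbered arrays (limma adjusted p = 0.000591) and 0.63 ± 0.13 in early-numbered arrays (limma adjusted p = 1.04e-05). Eif2ak3, which encodes the eIF2-alpha kinase PERK, had the opposite arrangement, with log2 levels of 9.14 to 10.4 (median 9.78) in late-numbered, 7.93 to 9.91 (median 8.77) in early-numbered and 8.8 to 10.1 (median 9.47) in control arrays. Here 8 early-numbered arrays fell below the lowest control array. The log2 differences of Eif2ak3 from control were 0.29 ± 0.08 in late-numbered arrays (limma adjusted p = 0.00155) and −0.63 ± 0.12 in early-numbered arrays (limma adjusted p = 1.92e-06). Atf6, the membrane-bound transcription factor freed by cleavage in the Golgi, was higher in late-numbered arrays by 0.32 ± 0.10 on the log2 scale (limma adjusted p = 0.00543) and was not called in early-numbered arrays (0.15 ± 0.14, limma adjusted p = 0.358). Of the 4 other Ern1 probe sets, 1 was called lower and 2 higher in late-numbered arrays, and the mean of all Ern1 probe sets differed by 0.07. The 2 other Atf6 probe sets were called higher in late-numbered (0.66 and 1.11) and in early-numbered arrays (0.69 and 0.47). With 3 principal components of the control probe sets in the fit the late-numbered Atf6 difference was −0.91. The control probe sets include dap, which separated late-numbered from control arrays, so such components and the group cannot be fully told apart.

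Xbp1 was higher in late-numbered tumor arrays and not in early-numbered ones. Xbp1 (chromosome 11, 5520641 to 5525993 in GRCm38), which encodes the transcription factor activated by IRE1 splicing, had log2 levels of 9.59 to 11.2 (median 10.35) in late-numbered tumor arrays, 7.96 to 10.1 (median 9.16) in early-numbered tumor arrays and 8.12 to 9.77 (median 9.065) in control arrays. Of the 52 late-numbered arrays, 48 lay above the highest control array, whereas the early-numbered range reached below and above that of the controls. The mean level was 10.38 ± 0.44 (SD, n = 52) in late-numbered, 9.05 ± 0.68 (n = 13) in early-numbered and 9.04 ± 0.36 (n = 28) in control arrays. The log2 difference from control was 1.34 ± 0.11 in late-numbered arrays, a fold of 2.54 (limma adjusted p = 3.51e-20), and 0.01 ± 0.15 in early-numbered arrays (limma adjusted p = 0.972). The array reads total Xbp1 mRNA here, so spliced and unspliced forms were not told apart.

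Ddit3 and Atf4, which act downstream of PERK, were higher in late-numbered and lower in early-numbered tumor arrays. Ddit3, the stress factor CHOP, had log2 levels of 8.62 to 10.3 (median 9.705) in late-numbered tumor, 6.46 to 8.41 (median 7.79) in early-numbered tumor and 8.15 to 9.43 (median 8.79) in control arrays. All 52 late-numbered arrays lay above the highest early-numbered array, 38 of them lay above the highest control array, and 11 of the 13 early-numbered arrays lay below the lowest control array. The log2 differences from control were 0.87 ± 0.09 in late-numbered arrays (limma adjusted p = 3.19e-15) and −1.07 ± 0.12 in early-numbered arrays (limma adjusted p = 3.04e-12). Atf4, whose translation rises when PERK phosphorylates eIF2-alpha, ran from 10.6 to 11.9 (median 11.2) in late-numbered, 9.85 to 10.6 (median 10.4) in early-numbered and 10.4 to 11.3 (median 10.9) in control arrays. The late-numbered and early-numbered Atf4 ranges met only at 10.6, and both overlapped the control range. Its log2 differences from control were 0.34 ± 0.07 (limma adjusted p = 7.56e-06) and −0.56 ± 0.10 (limma adjusted p = 5.56e-07) in late-numbered and early-numbered arrays. Another Atf4 probe set was called lower in late-numbered arrays (−0.20), and with 3 principal components in the fit the Atf4 difference there was −0.75.

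**Figure D3:**
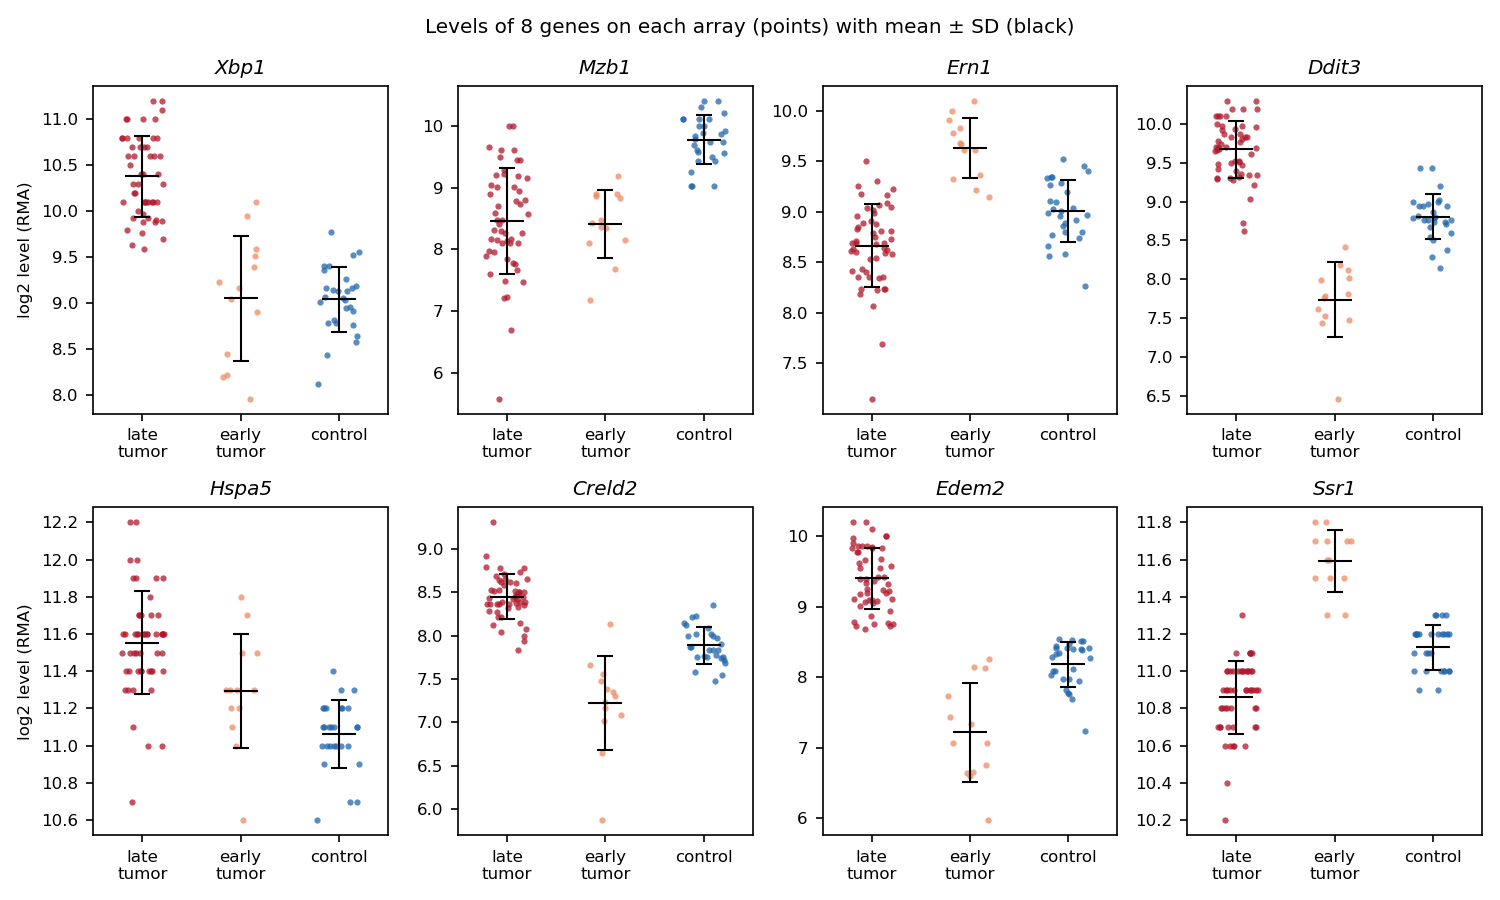
Log2 level of Xbp1, Mzb1, Ern1, Ddit3, Hspa5, Creld2, Edem2 and Ssr1 in each array, with late-numbered tumor (n = 52), early-numbered tumor (n = 13) and control arrays (n = 28) from left to right; each point is 1 array and black marks give the mean ± SD. Mzb1 is lower in both tumor groups, Xbp1 and Edem2 stand above control in the late-numbered arrays, and Ern1 and Ssr1 stand above control in the early-numbered arrays.

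In the BiP and GRP94 chaperone machinery, the chaperones and their co-chaperones did not change as a block. Hspa5, which encodes BiP, the main Hsp70 chaperone of the ER, had log2 levels of 10.7 to 12.2 (median 11.6) in late-numbered tumor, 10.6 to 11.8 (median 11.3) in early-numbered tumor and 10.6 to 11.4 (median 11.1) in control arrays. The groups overlapped, with 35 late-numbered and 4 early-numbered arrays above the highest control array. Hspa5 was higher by 0.49 ± 0.06 on the log2 scale in late-numbered arrays (limma adjusted p = 2.87e-11) and by 0.23 ± 0.09 in early-numbered arrays (limma adjusted p = 0.0174). Creld2, a BiP-associated isomerase, had log2 levels of 7.83 to 9.31 (median 8.445) in late-numbered, 5.87 to 8.14 (median 7.3) in early-numbered and 7.48 to 8.36 (median 7.855) in control arrays. For this gene 38 late-numbered arrays lay above every control array and 9 early-numbered arrays lay below every control array. The log2 differences from control were 0.56 ± 0.07 (limma adjusted p = 1.32e-10) in late-numbered arrays and −0.67 ± 0.10 (limma adjusted p = 4.81e-08) in early-numbered arrays. Sdf2l1, a cofactor of BiP, differed from control by 0.44 ± 0.09 in late-numbered and −0.53 ± 0.13 in early-numbered arrays on the log2 scale, both called. Hsp90b1, which encodes GRP94, the ER form of Hsp90, differed by 0.19 ± 0.07 in late-numbered and −0.51 ± 0.10 in early-numbered arrays, but its other probe set was called higher in early-numbered arrays (0.31).

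The J-domain co-chaperones of BiP were lower in late-numbered tumor arrays by their brightest probe sets. Dnajb11, Dnajc3 and Dnajb9, which stimulate the ATPase of BiP, had log2 differences from control of −0.47 ± 0.05, −0.49 ± 0.07 and −0.25 ± 0.07 in late-numbered arrays, each called. In early-numbered arrays Dnajb11 (−0.26 ± 0.07) and Dnajb9 (−0.32 ± 0.09) were called lower and Dnajc3 was not called (0.07). Of the 52 late-numbered arrays, 41 lay below the lowest control array for Dnajc3 and 29 for Dnajb11. Among the 4 other Dnajc3 probe sets, 1 was called lower (−0.29) and 1 higher (0.24) in late-numbered arrays, so the direction of Dnajc3 depended on the probe set. The Dnajb11 difference was 0.11 in late-numbered arrays with 3 principal components in the fit. Hyou1, a large chaperone that exchanges the nucleotide of BiP, and Manf, a secreted BiP partner, were called in neither group. Their log2 differences by the brightest probe set lay between −0.01 and 0.17. Another, dimmer Hyou1 probe set was called higher in late-numbered (0.50) and lower in early-numbered arrays (−1.48). The remaining Hyou1 probe set was called in neither.

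Mzb1, the chaperone of B cells and antibody-secreting cells, was lower in both tumor groups. Its log2 levels were 5.59 to 10 (median 8.44) in late-numbered tumor, 7.18 to 9.19 (median 8.43) in early-numbered tumor and 9.02 to 10.4 (median 9.81) in control arrays. Below the lowest control array lay 38 of the 52 late-numbered and 12 of the 13 early-numbered arrays. The mean level was 8.46 ± 0.85 (SD, n = 52) in late-numbered, 8.41 ± 0.55 (n = 13) in early-numbered and 9.77 ± 0.40 (n = 28) in control arrays. The log2 differences from control were −1.31 ± 0.16 in late-numbered arrays (limma adjusted p = 1.66e-11) and −1.33 ± 0.23 in early-numbered arrays (limma adjusted p = 5.95e-07), folds of 0.402 and 0.398. The late-numbered minus early-numbered difference of Mzb1 was 0.01 ± 0.21 (limma adjusted p = 0.957), whereas that of Xbp1 was 1.34 ± 0.14 (limma adjusted p = 2.39e-14). Mzb1 was read by 1 probe set. Beside it, 13 of 14 measured B cell markers were lower in late-numbered and 11 of 14 in early-numbered arrays. Of 9 measured markers of antibody-secreting cells, 7 were lower in late-numbered and 5 in early-numbered arrays. Over all genes 20.5% were called lower in late-numbered and 29% in early-numbered arrays.

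Disulfide isomerases and lectin chaperones differed among themselves. Pdia4 (ERp72), an isomerase bound to the BiP complex, had log2 levels of 6.21 to 9.04 (median 7.35) in late-numbered tumor, 4.35 to 6.18 (median 5.38) in early-numbered tumor and 4.41 to 7.44 (median 6.765) in control arrays. Every late-numbered array was above every early-numbered array, and both groups overlapped the controls. The log2 differences of Pdia4 from control were 0.69 ± 0.11 in late-numbered (limma adjusted p = 1.81e-07) and −1.42 ± 0.16 in early-numbered arrays (limma adjusted p = 3.97e-12). Pdia6 (P5), an isomerase that also regulates IRE1, had log2 levels of 7.61 to 9.35 (median 8.27) in late-numbered, 6.4 to 7.82 (median 7.27) in early-numbered and 7.11 to 8.14 (median 7.6) in control arrays, with 34 late-numbered arrays above the highest control array. Its log2 differences were 0.68 ± 0.07 (limma adjusted p = 4.24e-14) in late-numbered and −0.33 ± 0.10 (limma adjusted p = 0.00344) in early-numbered arrays. The other probe set of Pdia4 was called higher in early-numbered arrays and the other one of Pdia6 lower in late-numbered arrays, so the direction of both genes there rests on the brighter probe set.

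Calreticulin (Calr) and calnexin (Canx), the lectins that retain glycoproteins until they are folded, were both called lower in late-numbered tumor arrays. Calr had log2 levels of 11.2 to 12.3 (median 11.6) in late-numbered, 11.1 to 12.1 (median 11.8) in early-numbered and 11.8 to 12.2 (median 11.9) in control arrays, with 38 late-numbered arrays below the lowest control array. It was called lower in late-numbered (log2 difference −0.29 ± 0.05) and early-numbered arrays (−0.16 ± 0.07). Canx was called lower in late-numbered arrays (−0.24 ± 0.05) and higher in early-numbered arrays (0.20 ± 0.07), but 1 of its 2 other probe sets was called in the opposite direction in each group, and with 3 principal components in the fit its late-numbered difference was 0.24. Pdia3 (ERp57), the isomerase that works with both lectins, was higher in late-numbered arrays by 0.32 ± 0.07 on the log2 scale, whereas P4hb, the archetypal disulfide isomerase, was lower there (−0.36 ± 0.06). Neither Pdia3 nor P4hb was called in early-numbered arrays (log2 differences of −0.21 and 0.03).

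Subunits of the translocon differed in direction too. Sec61b, the small beta subunit of the channel, had log2 levels of 11 to 11.9 (median 11.5) in late-numbered tumor, 9.65 to 11.1 (median 10.8) in early-numbered tumor and 10.6 to 11.3 (median 11) in control arrays, with 36 late-numbered arrays above the highest control array. The log2 differences of Sec61b from control were 0.44 ± 0.06 (limma adjusted p = 1.8e-09) in late-numbered and −0.47 ± 0.09 (limma adjusted p = 4.71e-06) in early-numbered arrays. Sec61a1, the channel itself, was not called in late-numbered arrays (−0.09) and was lower in early-numbered arrays (log2 difference −0.95 ± 0.09, limma adjusted p = 5.6e-16), with 12 of 13 arrays below the lowest control array. Of the 5 other Sec61a1 probe sets, 3 were called higher in late-numbered arrays and 4 lower in early-numbered arrays. Ssr1, the alpha subunit of the translocon-associated TRAP complex, showed the reverse order of the groups. Its log2 levels were 10.2 to 11.3 (median 10.9) in late-numbered, 11.3 to 11.8 (median 11.6) in early-numbered and 10.9 to 11.3 (median 11.2) in control arrays. Of the early-numbered arrays, 11 of 13 stood above the highest control array, and 21 late-numbered arrays stood below the lowest. The log2 differences of Ssr1 were −0.27 ± 0.04 (limma adjusted p = 5.7e-08) in late-numbered and 0.47 ± 0.06 (limma adjusted p = 2.34e-10) in early-numbered arrays, and the mean of its 4 probe sets gave −0.09 in early-numbered arrays. Ssr3, another TRAP subunit, was lower in late-numbered arrays (−0.18 ± 0.04) and not called in early-numbered arrays (0.11).

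Within ER-associated degradation, which returns misfolded proteins to the cytosol for destruction, Edem1, Edem2 and Herpud1 were called higher in late-numbered tumor arrays, whereas Sel1l, Derl1, Derl2 and Syvn1 were called lower. Edem2, a factor for mannose trimming of misfolded glycoproteins, had log2 levels of 8.69 to 10.2 (median 9.38) in late-numbered tumor, 5.97 to 8.26 (median 7.07) in early-numbered tumor and 7.23 to 8.55 (median 8.31) in control arrays. All 52 late-numbered arrays lay above the highest control array, and 7 early-numbered arrays lay below the lowest. The log2 differences of Edem2 from control were 1.22 ± 0.11 in late-numbered arrays, a fold of 2.33 (limma adjusted p = 3.77e-18), and −0.98 ± 0.15 in early-numbered arrays, a fold of 0.509 (limma adjusted p = 4.07e-08). The other Edem2 probe set was called higher in early-numbered arrays. Herpud1, a stress-induced partner of the degradation ligase, had log2 levels of 9.21 to 11.2 (median 9.845) in late-numbered, 8.21 to 9.05 (median 8.72) in early-numbered and 8.7 to 9.56 (median 9.235) in control arrays. Every late-numbered array was above every early-numbered array, and 46 were above the highest control array. The differences were 0.64 ± 0.06 (limma adjusted p = 6.45e-16) in late-numbered and −0.51 ± 0.09 (limma adjusted p = 6.17e-07) in early-numbered arrays.

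Edem1, a paralog of Edem2, was called higher in late-numbered (0.42 ± 0.09) and lower in early-numbered arrays (−0.53 ± 0.13), but its other probe set was called lower in late-numbered arrays (−0.21), and with 3 principal components in the fit the late-numbered difference was −1.48. Sel1l, the adaptor of the ligase HRD1, was lower in late-numbered arrays (log2 difference −0.37 ± 0.05, limma adjusted p = 2.04e-09) and not called in early-numbered arrays (0.08). All 4 other Sel1l probe sets were called higher in late-numbered arrays, so the direction of Sel1l depended on the probe set. Syvn1, which encodes HRD1, was lower in late-numbered (−0.27 ± 0.07) and early-numbered arrays (−0.62 ± 0.10), but its other probe set was called higher in late-numbered arrays (0.30). Derl1 and Derl2, channel components, were lower in late-numbered arrays (−0.30 and −0.28) and not called in early-numbered arrays. Derl3, a Derlin of secretory cells, had a dim signal, with a mean log2 level of 5.02 ± 0.47 (SD, n = 52) in late-numbered, 5.03 ± 0.38 (n = 13) in early-numbered and 5.09 ± 0.40 (n = 28) in control arrays, and was called in neither group.

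Set directly against each other, the tumor groups differed by more than 1 log2 unit for 7 of the named genes. Edem2 was higher in late-numbered than in early-numbered arrays by a fold of 4.59 (limma adjusted p = 2.66e-26), Pdia4 by 4.32 (5.21e-23), Ddit3 by 3.85 (1.56e-28) and Creld2 by 2.34 (7.55e-21). Ern1 and Ssr1 were the genes of the opposite kind with the smallest p, at log2 differences of −0.97 ± 0.12 (limma adjusted p = 4.06e-12) and −0.74 ± 0.06 (limma adjusted p = 1.75e-21). All 27 genes called between the tumor groups had the same sign in both cohorts, and 24 passed in each cohort alone. Of these 27, 22 had other probe sets. For 13 of the 22 at least 1 other probe set was called in the same direction, and for 9 at least 1 in the opposite one. Among the 9 were Pdia4 (−0.44) and Ssr1, with 2 of its 3 other probe sets. No other probe set of Edem2 or Ern1 was called between the tumor groups.

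Read over all 65 tumor arrays, the genes of opposite direction were called less completely. Against control 10 of the 34 genes were higher and 13 were lower (29.4% and 38.2%), where 22.7% and 19.6% of all genes were called. Of the 15 genes called in opposite directions in the tumor groups, 8 were not called over all tumor arrays. Pdia4 was one, at 0.27 on the log2 scale (limma adjusted p = 0.243), and Ern1 another, at −0.15 (limma adjusted p = 0.274). Xbp1 was called higher (1.08 ± 0.14) and Mzb1 lower (−1.32 ± 0.15, limma adjusted p = 8.28e-10 and 1.28e-11).

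In late-numbered tumor arrays more of the members, and also more of all genes, followed Xbp1 than Mzb1. Edem2 was the member that followed Xbp1 most closely. A gene was said to follow when the slope of its level on that of Xbp1 (or Mzb1) within a group, with cohort in the fit, passed a limma adjusted p of 0.05. In late-numbered tumor arrays 10 of the 33 other genes followed Xbp1 in the same direction and 5 in the opposite one, where 15.9% of all genes followed it and 15.9% ran against it. In validation arrays alone, 4 followed it and 0 ran against it. In early-numbered tumor arrays 3 followed Xbp1 and 0 ran against it (8 and 3 at an unadjusted p of 0.05), where 3.72% and 0.594% of all genes did so, and 0 followed it with the mean of all probe sets or with the B cell marker mean in the fit. In control arrays the counts were 6 and 0 (10 and 0 unadjusted), against 8.95% and 1.16% of all genes, with 3 in training and 1 in validation arrays alone. The median Pearson r with Xbp1 over the 33 genes was 0.102 in late-numbered, 0.22 in early-numbered and 0.211 in control arrays, and 16 genes had r above 0 in all 3 groups.

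**Figure D4:**
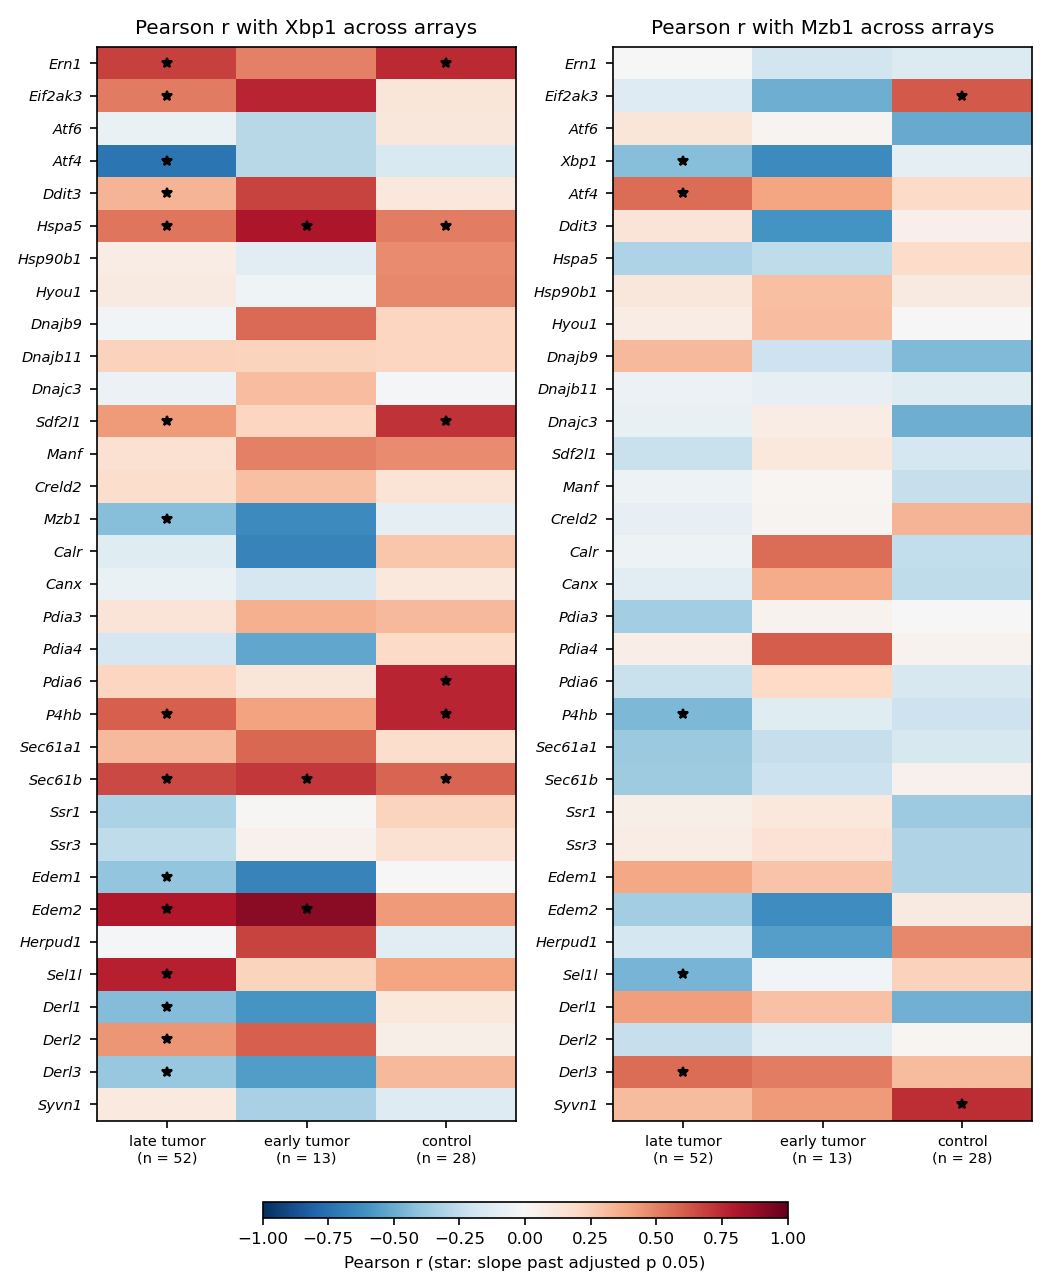
Pearson r of each of the other 33 genes with Xbp1 (left) and Mzb1 (right) across late-numbered tumor (n = 52), early-numbered tumor (n = 13) and control arrays (n = 28); a star marks a slope that passed a limma adjusted p of 0.05. In late-numbered arrays stars mark 10 genes with and 5 against Xbp1, where 15.9% and 15.9% of all genes were called. For Mzb1 they mark 2 with and 3 against, where 7.68% and 4.56% of all genes were called.

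Edem2, Sec61b and Hspa5 were the 3 genes that followed Xbp1 in both tumor groups. Edem2 had r = 0.805 and rho = 0.793 with Xbp1 over the 52 late-numbered arrays (permutation p = 1e-05, the smallest that 100000 resamples can give), with r = 0.834 in training and 0.767 in validation arrays and 0.784 without the 2 arrays farthest from the median. Over the 13 early-numbered arrays r was 0.898 and rho 0.912 (permutation p = 0.00011), and over the 28 control arrays the slope was not called, at r = 0.427. Sec61b had r = 0.661 in late-numbered arrays (rho = 0.671, permutation p = 1e-05) and 0.704 in early-numbered arrays, which became 0.488 without the 2 farthest arrays. Its r was 0.582 in control arrays, where it also followed. Hspa5 had r = 0.534 in late-numbered (rho = 0.571, permutation p = 2e-05), 0.811 in early-numbered and 0.509 in control arrays, and was called in each. These relations belong to a family of 198 between members and the 2 genes Xbp1 and Mzb1, and the calls are by the slopes adjusted over all probe sets.

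Other members passed the threshold for following Xbp1 in late-numbered or control arrays but not in the 13 early-numbered ones. Ern1 followed Xbp1 in late-numbered arrays (r = 0.682, permutation p = 1e-05) and in control arrays (r = 0.744), although its mean level was lower in late-numbered tumor than in control arrays. Eif2ak3 (r = 0.518) and Sel1l (r = 0.778) followed Xbp1 in late-numbered arrays. The Eif2ak3 slope was 0.37 there and 0.60 in early-numbered arrays, where it was not called (limma adjusted p = 0.0588). That of Sel1l was 0.42 in late-numbered and 0.05 in early-numbered arrays. Sdf2l1 (r = 0.723), Pdia6 (r = 0.762) and P4hb (r = 0.763) followed it in control arrays, where P4hb and Sdf2l1 did so in late-numbered arrays as well (r = 0.599 and 0.422). Atf4 ran against Xbp1 in late-numbered arrays, at r = −0.733 and rho = −0.715 (permutation p = 1e-05), with −0.836 in training and −0.55 in validation arrays. Of the group-to-group differences in slope on Xbp1, 2 of 33 were called between late-numbered and early-numbered arrays, where 2.78% of all genes were called: Atf4 at −0.40 ± 0.12 (limma adjusted p = 0.0459) and Sel1l at 0.36 ± 0.09 (limma adjusted p = 0.0176). No member's slope was called different between any other pair of groups, or on Mzb1, and the slopes of Atf4 and Sel1l were not called different between late-numbered and control arrays (limma adjusted p = 0.145 and 0.308). Each of these relations was read from the brightest probe set. In late-numbered against control arrays, all 4 other Sel1l probe sets and 1 of the 2 other Atf4 probe sets were called opposite to it.

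Few of the members, and also few of all genes, followed Mzb1. By their brightest probe sets, 2 followed it in late-numbered tumor arrays, Atf4 and Derl3, and 3 ran against it, Xbp1, P4hb and Sel1l. Of all genes, 7.68% and 4.56% did so. In early-numbered arrays 0 were called in either direction by limma (2 with and 2 against at an unadjusted p of 0.05), and 0% of all genes were called with or against it. In control arrays 2 followed Mzb1, Eif2ak3 and Syvn1, and 0 ran against it (3 and 4 unadjusted), against 3.69% and 1.1% of all genes. Atf4 had r = 0.557 and rho = 0.559 with Mzb1 in late-numbered arrays (permutation p = 3e-05), and Derl3 had r = 0.559 (permutation p = 3e-05) despite its dim signal. Xbp1 and Mzb1 themselves ran against each other in late-numbered arrays, at r = −0.422 and rho = −0.544 (permutation p = 0.00169). Within cohorts that r was −0.646 in training and −0.214 in validation arrays. Over the 28 control arrays it was not called, with a slope adjusted p of 0.77 by limma.

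**Figure D5:**
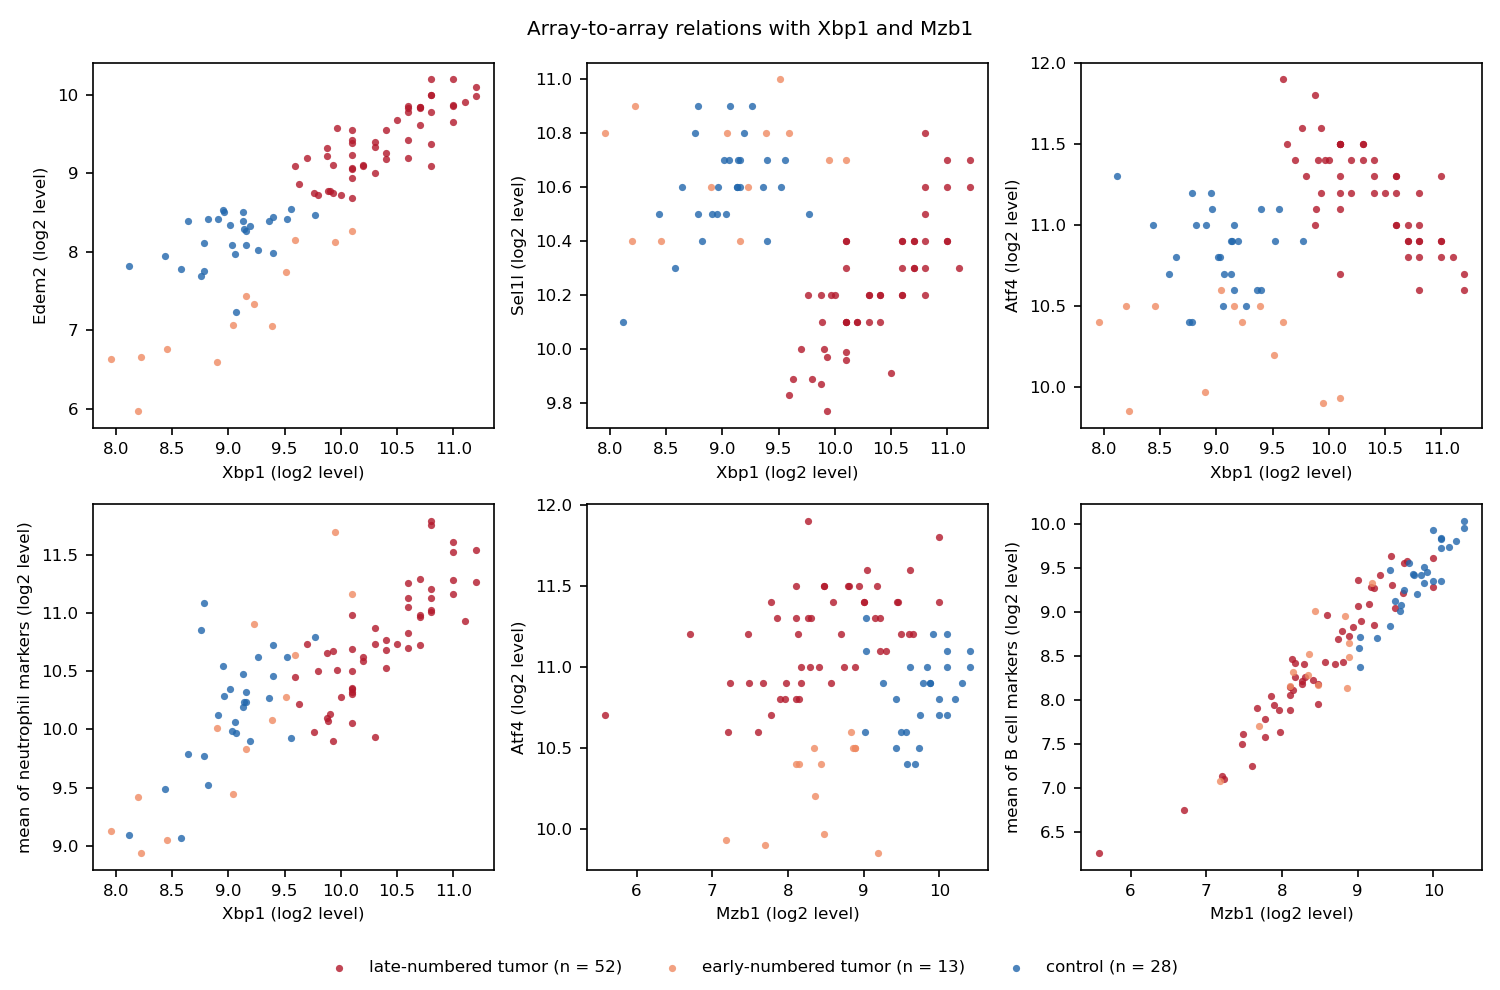
Log2 level of Edem2, Sel1l, Atf4 and the mean of the neutrophil markers against Xbp1, and of Atf4 and the mean of the B cell markers against Mzb1; each point is 1 array, coloured by late-numbered tumor, early-numbered tumor and control. Edem2 and the neutrophil mean climb with Xbp1 in late-numbered arrays (r = 0.805 and 0.799), and the B cell mean climbs with Mzb1 in all 3 groups.

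The levels of Xbp1 and Mzb1 moved with those of different blood cells. Xbp1 had r = 0.799 in late-numbered, 0.89 in early-numbered and 0.597 in control arrays with the mean of 12 measured neutrophil markers, and 0.534, 0.574 and 0.889 in the same groups with the mean of 8 measured monocyte markers. Mzb1 had r = 0.957, 0.839 and 0.912 with the mean of the B cell markers, and 0.897, 0.665 and 0.576 with that of 9 measured markers of antibody-secreting cells. Of the measured markers in late-numbered tumor against control arrays, 9 of 12 neutrophil markers and 5 of 8 monocyte markers were higher and none was lower. In early-numbered arrays the neutrophil counts were 1 higher and 2 lower. Over all genes the shares called higher and lower were 25.6% and 20.5% in late-numbered and 34.3% and 29% in early-numbered arrays. Of 9 measured T cell markers, 1 was higher and 5 were lower in late-numbered and 8 were lower in early-numbered arrays, and of 9 measured erythroid markers 2 were higher in late-numbered and 5 in early-numbered arrays. The neutrophil mean ran from 9.90 to 11.79 in late-numbered, 8.94 to 11.70 in early-numbered and 9.07 to 11.09 in control arrays. The B cell mean ran from 6.27 to 9.64 in late-numbered, 7.09 to 9.33 in early-numbered and 8.38 to 10.04 in control arrays. The lowest B cell mean came from validation number 19. That array also had the lowest mean of the platelet markers, 8.39, where the late-numbered median was 12.64. It was kept among the 52 late-numbered arrays.

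With the means of the B cell, neutrophil and monocyte markers in the fit, chosen after seeing the data, Xbp1 differed from control by 0.73 in late-numbered arrays and Mzb1 by −0.45, both still called by limma. Of the 23 members named by rule and called in late-numbered arrays, 18 were still called in the same direction, and 17 of 19 in early-numbered arrays. With the neutrophil and monocyte means in the fit of the slopes, 7 of the 15 called slopes on Xbp1 were kept in late-numbered arrays (Atf4, Hspa5, Sdf2l1, P4hb, Edem1, Sel1l and Derl1), 0 of 3 in early-numbered arrays and 1 of 6 in control arrays. Slopes of other members were then called in late-numbered arrays, so that 16 in all were called there (11 with and 5 against), against 15 without these means. The Edem2 slope in late-numbered arrays was then 0.33 (limma adjusted p = 0.122). With the B cell mean in the fit, 0 of the 5 slopes on Mzb1 in late-numbered arrays and 0 of the 2 in control arrays were kept.

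Ranking all 10603 genes above the median signal by their r after removing group and cohort means placed other genes nearer than the members. Nearest to Xbp1 were Tmem268 (0.892), Emilin2 (0.886), Nfil3 (0.873), Vsir (0.871) and Ncf4 (0.868, a subunit of the phagocyte NADPH oxidase). The best placed member was Edem2, at rank 120 with 0.77. Nearest to Mzb1 were Ly6d (0.946), Cd79b (0.942), Cd79a (0.937), Fcrla (0.934) and Ms4a1 (0.929), of which Cd79a and Cd79b form the signalling part of the B cell receptor and Ms4a1 encodes CD20. The best placed member for Mzb1 was Derl3, at rank 210 with 0.543, and Xbp1 stood at rank 10296 with −0.383. These values are pooled over the 93 arrays and describe shared levels, with the arrays, cohorts and cell makeup in common.

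Other genes of the same pathways, 114 measured of 119 listed, were also counted. For comparison, 25.6% of all genes were called higher and 20.5% lower in late-numbered arrays, and 34.3% and 29% in early-numbered arrays. In late-numbered tumor arrays 47 were higher and 32 lower (41.2% and 28.1%, median log2 difference 0.04, the same as over all genes), and in early-numbered tumor arrays 19 were higher and 64 lower (16.7% and 56.1%, median −0.27). Of the 12 genes of the COPII coat, which carries cargo out of the ER, 4 were higher and 3 lower in late-numbered arrays, and 1 was higher and 9 lower in early-numbered arrays. Of 17 translocon partners and oligosaccharyltransferase subunits, 8 were higher and 6 lower in late-numbered, and 2 were higher and 12 lower in early-numbered arrays. Of 20 targets of the PERK and ATF4 branch, 11 were higher and 5 lower in late-numbered, and 6 were higher and 8 lower in early-numbered arrays. The following were named after their values were seen. Asns, the asparagine synthetase, was higher in both groups (1.26 in late-numbered and 1.02 in early-numbered arrays, log2), whereas Nupr1, a stress-induced transcription regulator, was higher in late-numbered (0.89) and lower in early-numbered arrays (−1.38). Erp29, an ER folding factor (0.74 and −1.39), and Sec31a, a COPII coat subunit (0.34 and −1.36), had that same arrangement.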

How the data were processed

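Leukocyte RNA of cheek blood, taken after lysis of red cells, was amplified and hybridised to Affymetrix arrays. Expression was deposited as log2 values, summarised per probe set by RMA (its version is not given in the sources used here). RMA gives relative signal, so levels were compared between arrays and not between genes, and the number of arrays limits the precision. Groups followed the labels (cohort, tumor or control, and array number). Of 45101 probe sets, 64 controls were left out and 45037 tested, and 34945 had a single gene symbol, giving 18193 genes. Contrasts and slopes were fitted on all probe sets with limma 3.58.1 in R 4.3.3 (trended variance, cohort as covariate, Benjamini-Hochberg adjustment, threshold 0.05), the pooled tumor contrast in a separate fit of tumor and control arrays. Permutation p-values were two-sided, from 100000 resamples, with SciPy 1.17.1. Members named in full were Xbp1, Mzb1, the 3 with the smallest late-numbered p of each role and those called in opposite directions. Alternatives changed the probe set rule, covariates, weights, centring, controls, cohort and replicate block. Scripts were tested on simulated data. Members and lists were chosen with earlier results of these data known.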

Additional observations from a re-analysis of the deposited data

Results flagged for a closer look

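Differences of the late-numbered from the early-numbered tumor arrays were picked out where limma called them between the groups, for members named by rule. The values are those of the brightest probe set of each gene. For some genes, such as Ssr1 and Sel1l, other probe sets were called in the opposite direction. On the log2 scale, late-numbered minus early-numbered, the sensors gave −0.97 for Ern1 and 0.92 for Eif2ak3, and the transcription factors 1.34 for Xbp1, 0.90 for Atf4 and 1.94 for Ddit3. In the chaperone machinery the values were 0.26 for Hspa5, 0.69 for Hsp90b1, −0.21 for Dnajb11, 0.96 for Sdf2l1 and 1.23 for Creld2. Canx stood at −0.45, Pdia4 at 2.11 and Pdia6 at 1.01. The translocon gave 0.91 for Sec61b, −0.74 for Ssr1 and −0.28 for Ssr3, and degradation factors gave 0.95 for Edem1, 2.20 for Edem2, 1.15 for Herpud1 and −0.45 for Sel1l. The slopes on Xbp1 also differed between these tumor groups, by −0.40 for Atf4 and by 0.36 for Sel1l.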

How the results depend on the processing

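Results were refitted under other settings, of which the 3 marker means (B cell, neutrophil and monocyte) and the neutrophil and monocyte means were chosen after seeing the data. The control probe sets include dap, so their principal components and the late-numbered group cannot be fully told apart. With 3 principal components of the control probe sets as covariates, 68 of 100 single-gene results kept direction and side of the threshold and 14 reversed: in late-numbered against control Atf6 (−0.91), Atf4 (−0.75), Dnajb11 (0.11), Sel1l (0.29), Canx (0.24) and Edem1 (−1.48), and in late-numbered against early-numbered Mzb1 (−1.24), Atf6 (−1.07), Atf4 (−0.25), Dnajb11 (0.37), Calr (0.26), Sel1l (0.11), Canx (0.15) and Edem1 (−0.97). The mean of all probe sets of a gene reversed Ern1 (0.072) and Sel1l (0.21) in late-numbered and Ssr1 (−0.091) and Sel1l (−0.084) in early-numbered against control, and Hspa5 (−0.13), Ssr1 (0.073) and Sel1l (0.30) between the tumor groups. With beta-actin 5' minus 3' as covariate Atf6 reversed between the tumor groups (−0.46), and with median centring Mzb1 did (−0.066). Training arrays alone reversed Xbp1 (−0.11) and Calr (0.10) in early-numbered arrays, validation arrays alone Mzb1 (−0.14) and Calr (0.014) between the tumor groups, and separate controls Xbp1 (−0.043) in early-numbered arrays. With the 3 marker means Xbp1 in early-numbered arrays was −0.066 and Mzb1 between the tumor groups −0.057. Slopes reversed for Eif2ak3 on Mzb1 in control arrays with the B cell mean (−0.040), and on Xbp1 with the neutrophil and monocyte means for Ddit3 in late-numbered (−0.0033), Sec61b in early-numbered (−0.021) and Ern1 in control arrays (−0.0035).

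The count of members called in late-numbered against control arrays was 19 with 3 principal components. Over all tumor arrays it was 12 in training, 14 in validation, 10 with the replicate block and 14 with the 3 marker means. The count following Xbp1 was 4 in late-numbered arrays in validation alone. In early-numbered arrays it was 0 with the mean of probe sets, in validation, with the B cell mean and with the neutrophil and monocyte means, and 1 with 3 principal components or with both Xbp1 and Mzb1 in the fit. In control arrays it was 3 in training, 1 in validation and 1 with the neutrophil and monocyte means. The count following Mzb1 in late-numbered arrays was 8 with the mean of probe sets, 2 in validation, 0 with the B cell mean, 3 with both genes and 1 with the neutrophil and monocyte means. In control arrays it was 4 without dim probe sets or with beta-actin, and 0 in each cohort alone and with the B cell mean. The cause was not tested. Early-numbered training arrays (5) were too few for the slopes, which were not run.

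The replicate number as a block gave 21 members called in late-numbered, 20 in early-numbered and 22 between the tumor groups. Of 28 same-number pairs of a tumor and a control array, 11 had deviations correlated over 0.1 (median −0.028). The tumor deviations were taken from the mean of all tumor arrays of a cohort. They therefore hold the difference between the tumor groups, and these correlations cannot decide whether the numbers pair the arrays. In late-numbered arrays the split of 16 higher and 14 lower calls moved to 15 and 7 with the mean of probe sets. It was 14 and 5 with 3 principal components, 13 and 8 with the replicate block and 10 and 14 with the 3 marker means. In early-numbered arrays the split of 4 and 18 moved to 7 and 14 with beta-actin 5' minus 3' as covariate and to 6 and 17 with centring. Centring moved the median of all genes in early-numbered against control arrays to 0.14, against 0.07 without it.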
